A study of Mus musculus with 9 samples.

Results

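Medulloblastomas of Math1-cre;A1G;Ptch1+/- mice, called A1G tumours here, were compared with medulloblastomas of Ptch1+/- mice, called Ptch1 tumours. The comparison takes 6 of the 9 libraries of the series, all the tumour libraries, with 3 of each genotype. The other 3 libraries are cerebellum of wild-type adult C57BL/6 mice and serve here only as reference levels. Both tumour groups carried the heterozygous Ptch1 mutation and were of mixed strain. They differed by Math1-cre and A1G, and since every A1G tumour carried both, Cre and A1G cannot be told apart. Math1 is another name of Atoh1, and Math1-cre expresses Cre recombinase from regulatory sequence of that gene in granule neuron progenitors. The labels do not spell out A1G, and the series names ATOH1 acting with aberrant Sonic Hedgehog signalling as the driver of these tumours. No animal ages are given in the sources used here, and the labels do not say whether replicates came from separate animals, so p-values measure only the spread between these libraries.

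Sonic Hedgehog medulloblastoma arises from granule neuron progenitors of the cerebellum. In these cells Hedgehog ligand from Purkinje cells relieves the block that the receptor Ptch1 places on Smo, and Gli transcription factors then switch on growth genes such as Mycn and the D-type cyclins. Atoh1 is the basic helix-loop-helix factor that keeps progenitors in this dividing state, and it falls silent as granule neurons mature. Losing Ptch1 function leaves the pathway active without ligand.

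The libraries were made from total RNA depleted of ribosomal RNA and run on Ion Proton chips, 3 to a chip. Which of them were run together is not stated in the labels, so chip and genotype cannot be told apart. A1G libraries held 2350941 to 3049987 fragments assigned to genes, and Ptch1 libraries 2699234 to 9290237, so Ptch1 replicate 2 was the deepest. Levels are given as counts-per-million (CPM) of the scaled library size, with values in the order of replicates 1, 2 and 3. A floor of 3 fragments was 0.332 to 1.25 CPM, which covers counting error only. In bulk RNA a smaller number of cells of a type and less RNA per cell cannot be told apart.

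A1G replicate 2 stood apart from the other tumours, its own group included. Its Spearman correlations across genes with the other 5 libraries were 0.849 to 0.869, while all other pairs were at 0.88 to 0.939. The first principal component held 31.3% of the variance and placed A1G replicate 2 at 79.8 and the other 5 libraries between -25.2 and 2.7. The genotypes also overlapped on the next 2 components, which held 25% and 20.2%. The median SD of log2 CPM within a group was 0.445 in A1G tumours and 0.352 in Ptch1 tumours. Because of this library, values without it are given beside the results that it moves.

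Sex-linked genes also differed between libraries. Xist, the RNA that coats the inactive X chromosome, was at 2303, 3.88 and 4270 CPM in A1G tumours and at 0, 1.55 and 47.4 CPM in Ptch1 tumours. Kdm5d, a Y-linked histone demethylase, was at 0.376, 87.1 and 0 CPM in A1G tumours and at 139, 139 and 0 CPM in Ptch1 tumours. A1G replicates 1 and 3 thus had high Xist with Kdm5d below the floor. A1G replicate 2 and Ptch1 replicates 1 and 2 had Kdm5d well above the floor with little Xist. Ptch1 replicate 3 had no fragment of Kdm5d and a low level of Xist. Leaving out the genes of the X and Y chromosomes, an alternative chosen after seeing the data, left 0 genes past the test and 1097 at an unadjusted p under 0.05.

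No gene passed the test between the tumour genotypes. Of 23360 listed genes, 12357 had enough fragments to be tested, and edgeR's quasi-likelihood test called 0 of them (0%), with a smallest Benjamini-Hochberg adjusted p of 0.432. At an unadjusted p under 0.05 it counted 1138 genes (9.21%), of which 540 had higher and 598 lower fitted levels in A1G tumours. All 3 A1G libraries lay above all 3 Ptch1 libraries in 872 genes (7.06%) and below them in 1134 genes (9.18%). For a single gene, such a separation gives an exact two-sided permutation p of 0.1, the smallest that 3 against 3 libraries allow.

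The tool, the filter and the set of libraries changed which genes were called. DESeq2 on the same counts called 53 genes, 25 higher and 28 lower in A1G tumours, and in 51 of them the groups did not overlap. Without the filter on low counts edgeR called 32 higher and 10 lower genes, and 22 of these 42 were also among the DESeq2 calls. A1G replicate 2 was the highest library in 25 of the 32. A fit of all 9 libraries called 2 higher genes, Calb1 and Arhgef33. With limma on log2(FPKM + 1) the count was 0, and 1122 genes had an unadjusted p under 0.05. The genes below are therefore described by their levels.

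**Figure D1:**
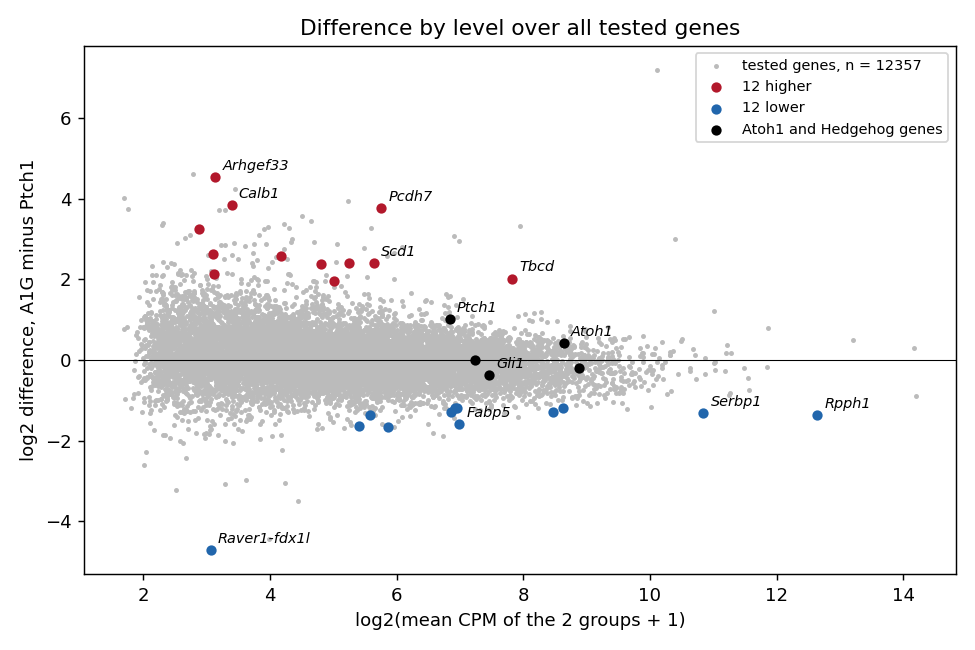
Each point is 1 of the 12357 tested genes, with the log2 of the mean CPM of both groups plus 1 on the x axis and the fitted log2 difference, A1G minus Ptch1, on the y axis. Red and blue points are the 12 genes with the smallest p in each direction and black points are Atoh1 and the Hedgehog genes, of which Ptch1 is highest at 1.003.

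With all libraries in the fit, differences of large size were more often toward higher levels in A1G tumours. The fitted log2 difference was over 1 in 693 genes and under -1 in 334, while over all tested genes the median difference was 0.02 and 51.9% lay over 0. These counts were not taken without A1G replicate 2. At an edgeR unadjusted p under 0.05, leaving that library out gave 623 higher and 844 lower genes, against 540 and 598 with all libraries. The median SE was 0.38 on the log2 scale. The difference-by-level plot shows that the red points sit mostly at low mean levels and the blue points at middle to high ones.

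Of the 12 genes with the smallest p toward higher levels in A1G tumours, 3 were close to the floor in Ptch1 tumours. Calb1, the calcium buffer calbindin, was at 14.3, 24.9 and 14.2 CPM in A1G tumours and at 1.86, 0.995 and 0.783 CPM in Ptch1 tumours (chromosome 4, 15881264 to 15908064, mm10). Arhgef33, a guanine nucleotide exchange factor, was at 17.7, 8.41 and 19.2 CPM against 0.697, 0.884 and 0 CPM (chromosome 17, 80307407 to 80400081). Rasgrf1, a neuronal activator of Ras, was at 13.9, 6.47 and 14.2 CPM against 1.63, 1.33 and 0.392 CPM (chromosome 9, 89909908 to 90026977). All 3 genes were at 6 CPM or more in every A1G library and below 2 CPM in every Ptch1 library, close to the floor. Their log2 differences were 3.83 (SE 0.57), 4.53 (SE 0.75) and 3.24 (SE 0.65), each with an edgeR adjusted p of 0.432. On a scale common to all 9 libraries, cerebellum held 674 CPM of Calb1, 398 CPM of Arhgef33 and 251 CPM of Rasgrf1.

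A second set held adhesion and guidance genes that were highest in A1G replicate 2. Pcdh7, a protocadherin, was at 57.5, 189.7 and 50.4 CPM in A1G tumours and at 11.6, 6.74 and 3.13 CPM in Ptch1 tumours (chromosome 5, 57717967 to 58133230). Pcdh17, another protocadherin, was at 35.0, 81.6 and 31.7 CPM against 14.9, 10.2 and 13.7 CPM (chromosome 14, 84443563 to 84539002). Sema5a, a semaphorin that steers axons, was at 18.4, 39.5 and 29.2 CPM against 6.04, 3.98 and 4.70 CPM (chromosome 15, 32244810 to 32696341). In all 3 the groups did not overlap, and A1G replicate 2 was highest. The log2 difference of Pcdh7 was 3.76 (SE 0.63) and 2.88 without A1G replicate 2. For Pcdh17 it was 1.95 (SE 0.43) and 1.37 without that library, and for Sema5a 2.57 (SE 0.43) and 2.27.

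Scaffold, cytoskeletal and signalling genes made up most of the rest. Tbcd, a cofactor that folds tubulin, was at 309.7, 395 and 381 CPM in A1G tumours and at 51.6, 72.1 and 146 CPM in Ptch1 tumours (chromosome 11, 121451949 to 121617164). Tanc2, a scaffold protein of the postsynaptic density, was at 26.7, 84.5 and 25.4 CPM against 7.20, 10.3 and 8.61 CPM (chromosome 11, 105589986 to 105929304). Arhgap26, a GTPase-activating protein, was at 31.2, 95.2 and 59.2 CPM against 9.06, 11.4 and 14.9 CPM. Tbcd was even across the A1G libraries, whereas Tanc2 and Arhgap26 were highest in replicate 2. Their log2 differences were 2.02 (SE 0.38), 2.38 (SE 0.51) and 2.40 (SE 0.44), and without A1G replicate 2 they were 1.95, 1.57 and 1.94. Tmod1, which caps actin filaments, was at 10.2, 19.7 and 9.17 CPM against 2.09, 1.33 and 3.13 CPM. Usp2, a deubiquitinase, was at 9.77, 13.3 and 14.2 CPM against 3.25, 2.21 and 3.13 CPM.

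Scd1 was the lipid gene of the set. This enzyme places a double bond in saturated fatty acids. It was at 118.8, 82.5 and 45.9 CPM in A1G tumours and at 14.2, 22.9 and 9.01 CPM in Ptch1 tumours (chromosome 19, 44394455 to 44407879). Its A1G levels were not highest in replicate 2, and the log2 difference of 2.39 (SE 0.45) was again 2.39 without that library. Its close relative Scd2 overlapped between groups, at 384, 463.5 and 385.5 CPM against 344, 542 and 432 CPM (log2 difference -0.10, SE 0.26). Of 29 tested genes of fatty acid carriage and lipid synthesis, 2 (6.9%) lay above in all A1G libraries, Scd1 and Acsl1, and 3 (10.3%) below, Fabp5, Fdft1 and Elovl4, shares near the 7.06% and 9.18% of all tested genes.

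As a set, the 12 higher genes had more RNA in cerebellum than in Ptch1 tumours in 12 of 12 cases and more than in A1G tumours in 10 of 12. Cerebellum was above Ptch1 tumours in 45.8% of all tested genes, and the 12 were chosen for low Ptch1 levels, so nothing is read from this count. A1G replicate 2 was the highest library in 8 of the 12. DESeq2 called all 12, with adjusted p from 3.56e-07 to 0.0447. Levels of Purkinje cell markers, given below, lay higher as a list in the A1G libraries, and Calb1 and Arhgef33 belong to both sets. The part of these markers in the differences was not tested.

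**Figure D2:**
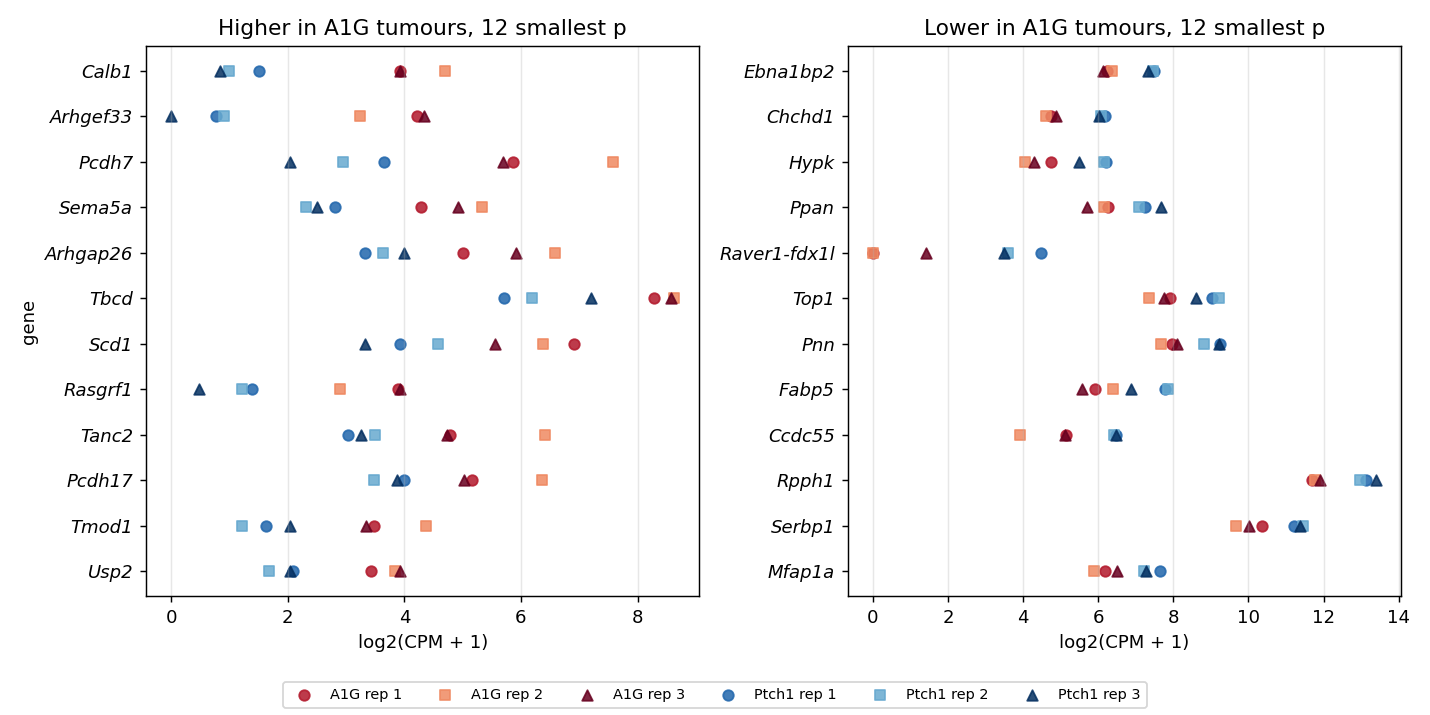
The x axis is log2(CPM + 1) and each row is a gene, with 12 higher genes on the left and 12 lower genes on the right, in order of p. Red points are A1G libraries and blue points are Ptch1 libraries, and within every row all red points lie to one side of all blue points because the genes were chosen not to overlap.

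Promoter sequence was looked up for the higher genes because the series names ATOH1, a factor that binds E-box motifs, as a driver of these tumours, and RefSeq (GRCm38.p6) gave an entry for 9 of the 12. Of the E-box hexamers searched on both strands in the 250 bases before the start, CAGCTG occurred in 1 of 9 higher genes, Tanc2, and in 1 of 8 lower genes with an entry, Chchd1. Over all 27025 promoters its share was 12.8%, and over the 9070 promoters of tested genes it was 11.5%. CAGATG occurred in 0 of 9 and 0 of 8, against 14.5% of all promoters and 9.53% of those of tested genes. The Gli motif GACCACCCA occurred in 0 of 9 and 0 of 8, against 0.211%. No match says only that these letters are not in this window. The windows of Arhgef33, the gene with the largest difference, and of Tanc2 are shown, at chr17:80307157-80307406 and chr11:105589736-105589985, both on the plus strand, with the CAGCTG of Tanc2, 107 bases before the start, in capitals.
Arhgef33: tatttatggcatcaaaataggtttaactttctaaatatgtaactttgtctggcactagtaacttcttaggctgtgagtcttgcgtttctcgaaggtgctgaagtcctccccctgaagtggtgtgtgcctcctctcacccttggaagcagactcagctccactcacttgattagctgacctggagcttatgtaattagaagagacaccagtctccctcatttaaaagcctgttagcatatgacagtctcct
Tanc2: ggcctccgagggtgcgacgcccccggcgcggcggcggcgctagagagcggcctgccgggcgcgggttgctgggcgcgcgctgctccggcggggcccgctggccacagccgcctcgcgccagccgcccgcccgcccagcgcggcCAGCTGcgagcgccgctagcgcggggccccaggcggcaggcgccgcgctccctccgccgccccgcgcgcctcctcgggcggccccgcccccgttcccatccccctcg

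The 12 genes with the smallest p toward lower levels in A1G tumours are given by what is known of them, ribosome factors first. Ebna1bp2, a nucleolar factor of ribosome assembly, was at 74.0, 81.2 and 68.3 CPM in A1G tumours and at 178, 173.5 and 160.5 CPM in Ptch1 tumours (chromosome 4, 118620799 to 118627776). Ppan, another ribosome assembly factor, was at 76.3, 70.9 and 51.3 CPM against 149.7, 135 and 204 CPM (chromosome 9, 20888175 to 20892178). Chchd1, a protein of the mitochondrial ribosome, was at 25.9, 23.6 and 28.3 CPM against 71.1, 66.8 and 63.8 CPM (chromosome 14, 20703006 to 20704425). In Ebna1bp2 and Chchd1 the libraries within a group were close together, while Ppan spread more, from 135 to 204 CPM in Ptch1 tumours. The groups were well apart in all 3 genes. The log2 differences were -1.20 (SE 0.22), -1.30 (SE 0.27) and -1.37 (SE 0.27), with an edgeR adjusted p of 0.432 each.

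RNA-binding and splicing genes followed. Serbp1, an RNA-binding protein of ribosomes and messenger RNA, was at 1316, 811 and 1028 CPM in A1G tumours and at 2363, 2823 and 2659 CPM in Ptch1 tumours (chromosome 6, 67238176 to 67297736). Mfap1a, a spliceosome component, was at 71.0, 57.9 and 89.6 CPM against 199, 148 and 153.5 CPM (chromosome 2, 121491911 to 121506665). Pnn, a splicing-associated nuclear protein, was at 248, 202 and 273 CPM against 609, 447 and 591 CPM. The highest A1G level in each gene was below the lowest Ptch1 level by a wide margin. Their log2 differences were -1.31 (SE 0.28), -1.20 (SE 0.26) and -1.19 (SE 0.25). Ccdc55, a splicing regulator, was at 34.2, 14.2 and 33.8 CPM against 87.4, 84.8 and 88.5 CPM, so the 3 Ptch1 libraries were nearly equal.

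The other 5 lower genes had mixed roles. Hypk, a ribosome-bound partner of N-terminal acetylation, lies close to Mfap1a on chromosome 2 (121453290 to 121458672) and was at 25.9, 15.5 and 18.8 CPM against 73.0, 70.2 and 43.9 CPM. Top1, the topoisomerase that relieves supercoils during transcription, was at 241, 162 and 215 CPM against 519, 597 and 387 CPM (chromosome 2, 160645888 to 160722764). Rpph1, the RNA of ribonuclease P, was at 3326, 3520 and 3865 CPM against 8875, 7990 and 10740 CPM. These were again without overlap, with log2 differences of -1.64 (SE 0.34), -1.28 (SE 0.27) and -1.37 (SE 0.29). Fabp5, a fatty acid carrier, was at 59.4, 83.2 and 46.3 CPM against 219.9, 233 and 116 CPM. Raver1-fdx1l, named for a pair of neighbouring genes, had a fragment only in replicate 3 of the A1G tumours, at 1.67 CPM, against 21.1, 11.2 and 10.2 CPM. Its log2 difference of -4.72 (SE 0.997) went from -8.95 to -4.10 as single libraries were left out. Since such a model shares reads with its parts, its value is uncertain.

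All 12 lower genes had less RNA in cerebellum than in Ptch1 tumours, and 9 of 12 less than in A1G tumours. The share below Ptch1 tumours was 54.2% over all tested genes, and these genes were chosen for high Ptch1 levels, so this count too is a description of the choice. A1G replicate 2 was the lowest library in 7 of the 12. DESeq2 called all 12, with adjusted p from 0.00021 to 0.0352.

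Atoh1, whose factor gives the series its model, overlapped between the genotypes (chromosome 6, 64729125 to 64731245). It was at 665, 401 and 299.7 CPM in A1G tumours and at 283, 322 and 413.5 CPM in Ptch1 tumours. The highest value was that of A1G replicate 1, and the other A1G libraries lay within the range of the Ptch1 tumours. The log2 difference was 0.42 (SE 0.32, edgeR adjusted p = 0.694), and it was 0.03 to 0.64 as single libraries were left out. Cerebellum stood at 8.81 CPM. Fragments of a transgene and of the endogenous gene cannot be told apart in these values.

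Hedgehog pathway genes overlapped between the genotypes as well. Ptch1, the receptor and itself a target of the pathway, was at 81.2, 311 and 60.9 CPM in A1G tumours and at 73.2, 52.0 and 102 CPM in Ptch1 tumours. The A1G value rested on replicate 2, and the log2 difference of 1.003 (SE 0.56, edgeR adjusted p = 0.596) was -0.09 without it. Gli1, a Gli factor that the pathway induces, was at 191, 112 and 154 CPM against 197, 185 and 212 CPM (log2 difference -0.38, SE 0.26, edgeR adjusted p = 0.655), with -0.20 without A1G replicate 2 and -0.59 without A1G replicate 1. Gli2 was at 205, 92.6 and 152 CPM against 169, 128 and 150.4 CPM. Mycn was at 525.5, 417 and 365.5 CPM against 546, 491 and 462 CPM. In A1G replicate 2 the receptor was at its highest while Gli1 and Gli2 were at their lowest.

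Of the 18 Hedgehog pathway genes, 15 were tested. 0 passed, 5 had higher and 10 lower fitted levels, and in 0 of them did the groups not overlap, against 7.06% and 9.18% of all tested genes. Their median log2 difference was -0.29 with all libraries, -0.09 without A1G replicate 2, -0.12 without A1G replicate 3 and -0.08 without Ptch1 replicate 1. Smo, the signal transducer, was at 253, 106 and 151 CPM against 227, 216 and 299 CPM. Boc, a coreceptor, was at 505, 152 and 318 CPM against 345, 307 and 565 CPM. Both were lowest in A1G replicate 2, and the ligand gene Shh had no fragment in any tumour library. Among 13 tested Hedgehog targets of granule progenitors, 10 had lower fitted levels and 2 (15.4%) were separated below, Foxm1 and Peli1, against 9.18% of all tested genes. Foxm1, which switches on mitotic genes, was at 148, 70.6 and 101 CPM against 158, 158 and 159 CPM (log2 difference -0.57, SE 0.29). Ccnd2, the D-type cyclin of these cells, overlapped, at 1201, 698 and 989 CPM against 1108, 1505 and 1222 CPM.

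Genes of the cell cycle were at lower levels in A1G replicates 2 and 3 than in the Ptch1 tumours as a rule, while A1G replicate 1 was close to the Ptch1 tumours. Of 38 tested genes of G2 and mitosis, 0 passed, 34 had lower fitted levels, and all A1G libraries lay below all Ptch1 libraries in 12 (31.6%), against 9.18% of all tested genes. Kif2c, a kinesin that takes apart microtubule ends at centromeres, was at 42.1, 30.1 and 42.9 CPM against 62.3, 89.0 and 78.7 CPM (log2 difference of about -1, SE 0.28). Bub1b, of the spindle checkpoint, was at 296, 90.6 and 155.5 CPM against 312, 349.6 and 340 CPM, so A1G replicate 1 was near the Ptch1 tumours. Mki67, the proliferation antigen, overlapped, at 3543, 644 and 2632 CPM against 3485, 3883 and 3999 CPM. The list's median log2 difference was -0.54, and -0.35 without A1G replicate 2.

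The 33 genes of G1 to S and DNA replication were also lowest in A1G replicate 2. 0 passed, 27 had lower fitted levels, and 6 (18.2%) were below in all A1G libraries, against 9.18% of all tested genes. Chaf1a, which loads histones onto new DNA, was at 142, 68.6 and 145 CPM against 179, 252 and 201 CPM. Mcm2, a subunit of the replicative helicase, was at 234, 146 and 151 CPM against 259.6, 373 and 242 CPM. The median log2 difference of the list was -0.42. It was -0.64 without A1G replicate 1 and -0.26 without either A1G replicate 2 or Ptch1 replicate 2.

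Replication-dependent histone genes, which are transcribed in S phase, were the list with the most separated members by number, though not by share. Of 53 tested, 0 passed, 50 had lower fitted levels and 22 (41.5%) lay below in all A1G libraries, against 9.18% of all tested genes. Hist1h2an was at 262, 212 and 243 CPM in A1G tumours and at 395, 654 and 627 CPM in Ptch1 tumours (log2 difference -1.22, SE 0.27). Hist1h1e, a linker histone, was at 759, 829.8 and 646 CPM against 1382, 1286 and 1112 CPM. Near-identical histone genes share reads, so single members are uncertain. The list's median log2 difference was -0.47. It was -0.36 without A1G replicate 2 and -0.22 in a fit that corrected each library for gene length.

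Gene length moved with the groups across the whole table. In the decile of tested genes with the shortest exon length (median 1412 bases) the median log2 difference was -0.15, and in the decile with the longest (12992 bases) it was 0.18. The shortest genes had 38 higher and 112 lower genes at an unadjusted p under 0.05, and the longest 91 and 30. Ptch1 replicate 2 went from 0.27 above the mean of the 6 libraries in the shortest genes to -0.15 in the longest, and A1G replicate 3 from -0.15 to 0.21, while A1G replicate 2 stayed near 0. The 12 higher genes named above had a median exon length of 8096 bases over the 11 with a length, and the 12 lower genes one of 4101 bases over 10. In a fit that corrected each library for gene length, the log2 differences of the 12 higher genes moved by -0.16 to 0.03 and those of the 12 lower genes by -0.21 to 0.23, and all kept their sign. Chchd1 went from -1.37 to -1.14, Rpph1 from -1.37 to -1.16 and Serbp1 from -1.31 to -1.52. In that fit 0 genes passed and 1122 had an unadjusted p under 0.05.

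**Figure D3:**
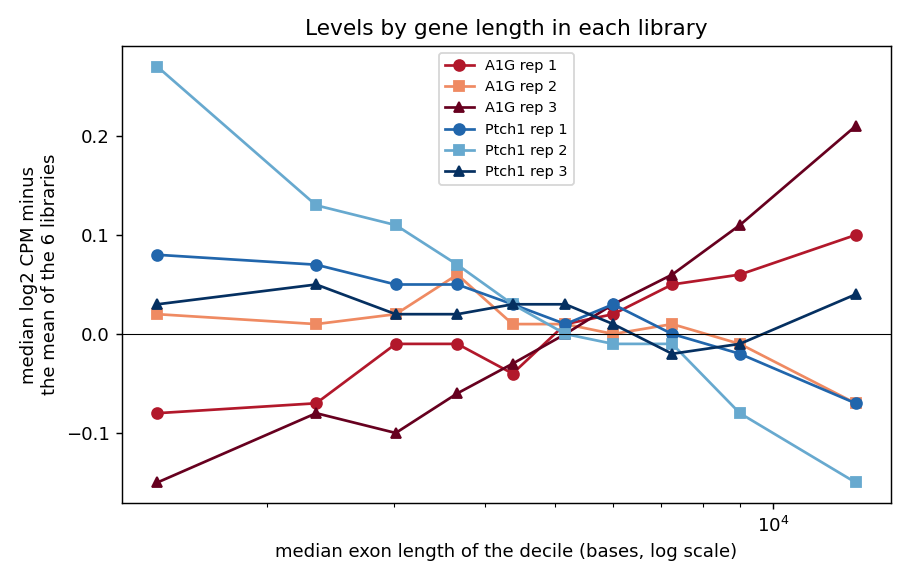
The x axis is the median exon length of each decile of the tested genes in bases, on a log scale, and the y axis the median log2 CPM minus the mean of the 6 libraries. Each line is 1 library, and the lines of Ptch1 replicate 2 (falling) and A1G replicate 3 (rising) are the steepest, from 0.27 to -0.15 and from -0.15 to 0.21.

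Splicing factors had lower fitted levels in A1G tumours in 33 of 41 tested members, of which 0 passed. In 10 (24.4%) all A1G libraries lay below all Ptch1 libraries and in 2 above, against 9.18% and 7.06% of all tested genes. Luc7l3, of the U1 particle, was at 357, 388 and 418 CPM against 818.5, 613 and 612 CPM (log2 difference -0.81, SE 0.24). Hnrnph1, an RNA-binding protein that guides exon choice, was at 521, 579 and 509 CPM against 842, 1041 and 731 CPM (log2 difference -0.70, SE 0.25). Both kept the groups apart by a clear gap. The 2 members above were Srsf2, at 288, 291 and 270.5 CPM against 162, 195 and 242 CPM, and Srrm2, at 1765, 1356 and 2031 CPM against 1040, 1232 and 1317 CPM. The median log2 difference of the list was -0.26, with -0.36 without A1G replicate 2 and -0.18 without Ptch1 replicate 2. It was -0.38 to -0.18 as single libraries were left out.

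Genes of the endoplasmic reticulum and secretion gave a like picture. Of 34 tested, 0 passed, 27 had lower fitted levels, and 10 (29.4%) lay below and 2 above in all A1G libraries, against 9.18% and 7.06% of all tested genes. Pdia4, which forms disulphide bonds in secreted proteins, was at 205, 162.5 and 152.5 CPM against 258, 371 and 312 CPM (log2 difference -0.86, SE 0.25). Hspa5, the main chaperone of this compartment, was at 327, 288 and 272 CPM against 427, 796 and 499 CPM (log2 difference -0.96, SE 0.29). Ptch1 replicate 2 was the highest library in both. Tgoln1 and Tgoln2 went opposite ways, at 82.7, 109 and 91.7 CPM against 41.4, 46.3 and 68.5 CPM for Tgoln1 and at 39.1, 67.6 and 27.1 CPM against 149, 111 and 142 CPM for Tgoln2. This pair is near-identical in sequence and shares reads, so the split between them is uncertain. The median log2 difference of the list was -0.39, with -0.41 without A1G replicate 2 and -0.29 without Ptch1 replicate 2. It was -0.43 to -0.29 as single libraries were left out.

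Cytosolic ribosomal protein genes had a median log2 difference of -0.20, and -0.06 in the length-corrected fit. Of 77 tested, 0 passed, 57 had lower fitted levels, 14 (18.2%) lay below in all A1G libraries and 1 above, against 9.18% and 7.06% of all tested genes. Rpsa, a protein of the small subunit, was at 519, 354 and 442 CPM against 758, 847 and 805 CPM (log2 difference -0.87, SE 0.25). Rpl21, of the large subunit, was at 294, 210.0 and 283 CPM against 508, 433 and 418 CPM (log2 difference -0.79, SE 0.24). The list's median was -0.08 without Ptch1 replicate 2. Ribosomal protein genes have many processed copies in the genome, so reads may be split between them.

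Purkinje cell markers were higher as a list in each A1G library, from low levels. Of 23 markers, 16 passed the filter on low counts, 0 passed the test, 12 had higher fitted levels, and in 8 (50%) all A1G libraries lay above all Ptch1 libraries, against 7.06% of all tested genes. Arhgef33 and Calb1 are among these 8. Both passed the filter only through their A1G levels, so the share and the median of the tested markers depend in part on the filter. Itpr1, the calcium release channel of Purkinje cells, was at 448, 285 and 557 CPM in A1G tumours and at 152, 171 and 247.5 CPM in Ptch1 tumours (log2 difference 1.18, SE 0.31). Car8, which restrains that channel, was at 30.8, 15.5 and 55.8 CPM against 9.53, 0.332 and 0.783 CPM (log2 difference 3.26, SE 0.996). Both were separated, by a narrow gap in Car8 between A1G replicate 2 and Ptch1 replicate 1. The summed level of the 23 markers was 1025 to 1248 CPM in A1G tumours and 699.7 to 757 CPM in Ptch1 tumours, with none of them at 0 in all libraries. The median log2 difference was 0.81, and 0.57 to 0.92 as single libraries were left out.

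Other neuronal lists differed widely between libraries of the same genotype. Mature granule neuron genes had a median log2 difference of 1.04, and 17 of 19 tested genes had higher fitted levels, yet the groups overlapped in every one of the 19. Over all tested genes, 7.06% were separated above and 9.18% below. Their summed level was 952, 3009 and 2960 CPM in A1G tumours and 1067, 446 and 2351 CPM in Ptch1 tumours. A1G replicate 1 was thus nearer to Ptch1 replicate 1 than to its own group, and Ptch1 replicate 3 was nearer to the remaining A1G libraries. Leaving out Ptch1 replicate 2 gave a median of 0.59, leaving out A1G replicate 3 one of 0.65 and leaving out Ptch1 replicate 3 one of 1.98. Synaptic vesicle genes had a median of 0.47, and of 0.02 without A1G replicate 2, 0.15 without A1G replicate 3 and 0.12 without Ptch1 replicate 2. No difference of this list is read from its separated members, since 1 of 33 (3.03%) lay above in all A1G libraries, under the 7.06% of all tested genes. That member, Vamp2, a protein that fuses vesicles, was at 41.7, 126 and 56.7 CPM against 33.5, 32.6 and 30.1 CPM.

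Ion channel genes had higher fitted levels in A1G tumours in 32 of 39 tested members, with a median log2 difference of 0.63, and of 0.35 when A1G replicate 3 was left out, 0.39 when Ptch1 replicate 2 was, and 1.06 when Ptch1 replicate 3 was. 0 passed, and 9 (23.1%) lay above and 2 below in all A1G libraries, against 7.06% and 9.18% of all tested genes. Kcnd3, a potassium channel of dendrites, was at 88.3, 95.8 and 117 CPM against 52.5, 35.2 and 52.9 CPM (log2 difference 1.10, SE 0.28). Kcna6, an axonal potassium channel, was at 7.52, 181 and 18.3 CPM against 3.49, 6.74 and 2.35 CPM, so its log2 difference of 3.95 (SE 1.05) came mostly from replicate 2. Scn3a, a sodium channel of immature neurons, was lower, at 19.2, 14.6 and 17.5 CPM against 35.1, 20.8 and 50.1 CPM. Of 37 tested glutamate receptor and postsynaptic genes, 30 had higher fitted levels and 3 (8.11%) lay above in all A1G libraries, a share near the 7.06% of all tested genes.

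Inhibitory interneuron markers were sparse. Of 16 markers, 8 were tested, and 2 (25%) lay above in all A1G libraries, both of them enzymes that make GABA, against 7.06% of all tested genes. Both passed the filter on low counts only through their A1G levels, so no difference of the list is read from this share. Gad1 was at 15.03, 3.88 and 37.1 CPM against 0.930, 0.221 and 2.35 CPM, and Gad2 at 4.51, 8.74 and 6.67 CPM against 2.56, 1.11 and 3.13 CPM. Their log2 differences were 4.23 (SE 1.001) and 1.61 (SE 0.62). The summed level of the 16 markers overlapped, at 188 to 322 CPM in A1G tumours and 214 to 250.1 CPM in Ptch1 tumours. Slc6a5 and Ptf1a, which define glycinergic cells and the inhibitory lineage, had no fragment in any tumour library.

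Oligodendrocyte markers were higher in A1G tumours than in Ptch1 replicates 2 and 3, and close to Ptch1 replicate 1. Of 17 markers, 11 were tested, 0 passed, and 4 (36.4%) lay above in all A1G libraries, against 7.06% of all tested genes. Cnp, a myelin enzyme, was at 49.99, 44.99 and 40.4 CPM against 22.3, 8.62 and 3.52 CPM (log2 difference 1.95, SE 0.55). Mbp, the myelin basic protein, overlapped, at 239, 257 and 191 CPM against 269.8, 49.4 and 110.0 CPM. The summed level was 536, 481 and 409.7 CPM in A1G tumours and 480.4, 122 and 186 CPM in Ptch1 tumours, with Opalin at 0 throughout. The median log2 difference of the tested members was 0.98, with 0.64 without A1G replicate 1 and 1.63 without Ptch1 replicate 1.

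Markers of the other cell types overlapped in their sums. Microglia and macrophage markers summed to 565 to 814 CPM in A1G tumours and 397 to 938 CPM in Ptch1 tumours, endothelial markers to 180 to 317 CPM and 139 to 225 CPM, and astrocyte and Bergmann glia markers to 1636 to 2748 CPM and 1491 to 3037 CPM. Markers of T and NK cells stayed at or below 11.6 CPM in every library and those of neutrophils at or below 7.20 CPM, with 0 tested members. Slc4a4, a bicarbonate transporter of astrocytes, was separated, at 112, 72.8 and 200.1 CPM against 44.8, 34.6 and 57.6 CPM (log2 difference 1.49, SE 0.39). Slc1a3, a glutamate transporter that marks the same cells, overlapped.

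**Figure D4:**
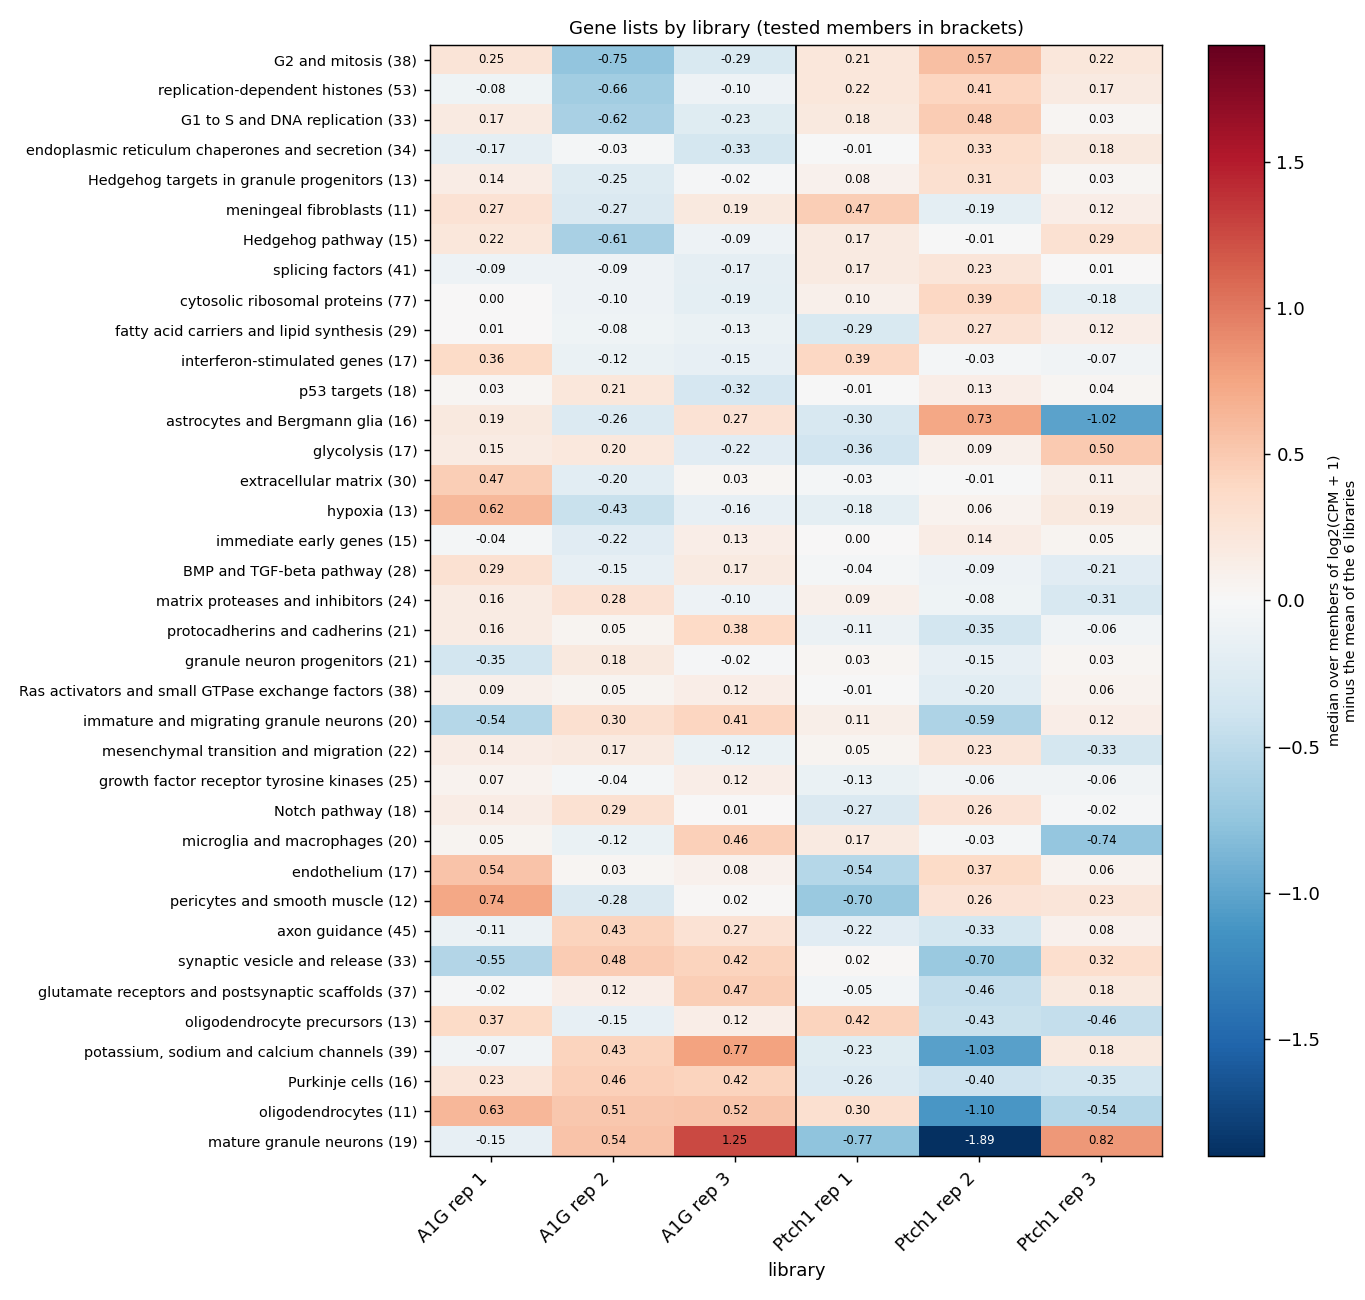
Each cell is the median over the tested members of a list of log2(CPM + 1) minus the mean of the 6 libraries, with lists as rows, from the lowest to the highest median difference, and libraries as columns. A1G libraries are left of the black line, and the row of mature granule neurons runs from -1.89 in Ptch1 replicate 2 to 1.25 in A1G replicate 3.

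Axon guidance, the granule lineage and adhesion were described next, because the series title concerns metastasis. Of 45 tested axon guidance genes, 0 passed, 35 had higher fitted levels, and 8 (17.8%) lay above and 1 below in all A1G libraries, against 7.06% and 9.18% of all tested genes. Neo1, a receptor for netrins and repulsive guidance molecules, was at 615, 546 and 466 CPM against 292, 286 and 338 CPM (log2 difference 0.83, SE 0.24). Dcc, the netrin receptor, was at 951, 788 and 717 CPM against 447, 531 and 709 CPM (log2 difference 0.54, SE 0.27), so that A1G replicate 3 and Ptch1 replicate 3 were almost equal. Plxna4, a semaphorin coreceptor, was at 8.27, 4.86 and 16.2 CPM against 2.32, 2.21 and 1.96 CPM. It passed the filter on low counts only through its A1G levels. The member below was Nrp2, another semaphorin coreceptor, at 16.5, 25.9 and 22.1 CPM against 36.5, 41.9 and 43.9 CPM. The list's median log2 difference was 0.43, and 0.05 without A1G replicate 2.

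Among immature and migrating granule neuron genes, 4 of 20 tested (20%) lay above in all A1G libraries, against 7.06% of all tested genes. Dcx, the microtubule protein doublecortin of migrating neurons, was at 711, 547 and 1224 CPM against 511, 370 and 520.4 CPM (log2 difference 0.83, SE 0.33). Nfia, a transcription factor of granule neuron maturation, was at 1478, 2052 and 1485 CPM against 1072, 1445 and 1137 CPM. The gap between groups was small in both. The list's summed level overlapped, at 8025 to 11460 CPM against 7536 to 9126 CPM. Of 21 tested granule progenitor genes, 12 had higher and 9 lower fitted levels. Lhx2 alone was separated (4.76% below, against 9.18% of all tested genes), at 15.8, 5.83 and 16.7 CPM against 19.99, 25.9 and 31.3 CPM.

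Matrix and adhesion lists had small numbers of separated members. Of 21 tested protocadherins and cadherins, 3 (14.3%) lay above in all A1G libraries, Pcdh7 among them, and 0 below. The shares of all tested genes were 7.06% and 9.18%. The 30 tested extracellular matrix genes had a median log2 difference of 0.05, with -0.19 without A1G replicate 1 and 0.21 without Ptch1 replicate 3. Of them, 3 (10%) lay above in all A1G libraries, against 7.06% of all tested genes. These 3 code for basement membrane proteins. Hspg2, or perlecan, was at 83.4, 84.8 and 65.0 CPM against 17.9, 26.5 and 53.2 CPM (log2 difference 1.27, SE 0.40). Col18a1 was at 148, 214 and 105 CPM against 41.1, 97.4 and 67.3 CPM, and Lama2 at 18.4, 31.4 and 14.2 CPM against 9.06, 12.5 and 11.8 CPM. Of 22 tested genes of mesenchymal transition and migration, 2 lay above and 1 below (9.09% and 4.55%). Zeb1 and Zeb2, repressors of epithelial genes, overlapped between groups.

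In the BMP and TGF-beta list, 5 of 28 tested genes lay above in all A1G libraries, Smad2, Smad4, Smad5, Tgfbr1 and Id4, and 1 below, Id1. These are 17.9% and 3.57%, against 7.06% and 9.18% of all tested genes. Smad2, a signal carrier of TGF-beta, was at 185, 177 and 141 CPM against 123, 108 and 99.5 CPM (log2 difference 0.61, SE 0.23). Id1, a BMP target that blocks basic helix-loop-helix factors, was at 19.5, 13.6 and 12.9 CPM against 35.3, 35.8 and 21.1 CPM (log2 difference -1.01, SE 0.36). The groups were close at their edges in both genes. In the Notch list, 3 of 18 tested genes lay above, the receptors Notch1 and Notch2 and the DNA-binding partner Rbpj, and the ligand Dll4 below (16.7% and 5.56%, against the same shares of all genes).

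Metabolic and stress genes had separated members at shares near those of all tested genes, 7.06% above and 9.18% below, so no difference of these lists is read from the counts. Of 17 tested glycolysis genes, 2 (11.8%) lay above in all A1G libraries and 1 (5.88%) below, with a median log2 difference of 0.05. The member below was Hk2, the hexokinase of fast-growing cells and of Hedgehog-driven progenitors, at 195, 45.3 and 155.5 CPM against 274, 394 and 386 CPM (log2 difference -1.42, SE 0.46). Slc2a1, the glucose carrier of brain vessels and a hypoxia target, was above, at 59.8, 54.4 and 38.8 CPM against 15.6, 37.1 and 29.4 CPM. Hk2 was lowest in A1G replicate 2, and Slc2a1 was separated by a narrow gap. Of 18 tested p53 targets, 2 (11.1%) lay below, Ccng1 and Mdm2. Ccng1, a cyclin induced by p53, was at 65.0, 57.6 and 67.1 CPM against 92.3, 107.5 and 125 CPM (log2 difference -0.77, SE 0.24). Among 17 tested interferon-stimulated genes 1 lay above and 1 below (5.88% each), and among 15 immediate early genes 2 lay below (13.3%), Fos and Ier5.

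A1G replicate 2 differed from the other 5 tumours in single genes as well as in lists. In it 7 genes were at 50 CPM or more while all other tumours were at 5 CPM or less, against 1 such gene in A1G replicate 3 and 0 in each of the other 4 libraries. Akr1c13, an aldo-keto reductase, was at 878 CPM and at most 0.442 CPM elsewhere. Twist1, a transcription factor of mesenchymal cells, was at 104 CPM and at most 0.930 CPM elsewhere. Fermt1, which activates integrins, was at 117 CPM, and the neuronal transcription factor Helt at 50.5 CPM with no fragment in any other tumour. In the opposite direction Bmp5, a BMP ligand, was at 0.647 CPM in this library and at 131 to 389 CPM in the others, and Neurod6, a neuronal bHLH factor, was at 4.86 CPM and at 55.4 to 115 CPM.

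Several forkhead genes, looked at after their values were seen, were also high in that library, while the forkhead gene Foxm1 was at its lowest there. Foxf1 was at 100.01 CPM there and at most 1.13 CPM in the other tumours. Fendrr, a long noncoding RNA that starts 1276 bases away from Foxf1 on the opposite strand (chromosome 8, 121054882 to 121083110), was at 43.1 CPM and had no fragment in any other tumour. Foxl1, in the same cluster, was at 23.0 CPM, whereas Foxc2, which lies between them, had no fragment in that library. Mthfsd, the neighbour that is not a forkhead gene, was at 27.2 CPM there and at 13.1 to 37.6 CPM elsewhere, so it did not stand out. On chromosome 13 the relatives Foxf2 and Foxq1 were at 219.8 and 36.9 CPM in that library, and the other tumours were at 1.25 to 19.8 CPM and at 0.232 to 7.89 CPM. The window before the start of Fendrr, which faces Foxf1 across the gap, is shown from RefSeq (GRCm38.p6, chr8:121083111-121083360, minus strand), with no motif marked.
Fendrr: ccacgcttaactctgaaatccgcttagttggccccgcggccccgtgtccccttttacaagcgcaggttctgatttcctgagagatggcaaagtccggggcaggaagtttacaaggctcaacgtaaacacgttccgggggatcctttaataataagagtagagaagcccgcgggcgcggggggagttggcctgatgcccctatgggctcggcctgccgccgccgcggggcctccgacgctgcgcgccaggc

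Other libraries had their own extremes. Rprl3, a noncoding RNA, was at 1299 CPM in Ptch1 replicate 2 and at most 5.83 CPM in the other tumours. Zdbf2, an imprinted gene, was at 19.5, 0.971 and 117.5 CPM in A1G tumours and at 0.465, 205 and 2.35 CPM in Ptch1 tumours. In neither gene did the extreme libraries follow genotype.

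Levels along chromosomes were shifted in single tumours. Over genes with a mean of at least 10 CPM, the median log2 level against the other 5 libraries was 0.44 on chromosome 17 and 0.52 on chromosome 18 in A1G replicate 2, with 74.6% of 461 and 79.9% of 284 genes above. Ptch1 replicate 2 was at 0.43 on chromosome 17, with 80.3% of genes above, and Ptch1 replicate 1 at 0.41 on chromosome 14, with 80% of 335 above. These shifts held in every window of 20 Mb that had at least 20 genes. They were 0.35 to 0.49 on chromosome 17 and 0.39 to 0.55 on chromosome 18 in A1G replicate 2. In Ptch1 replicate 2 they were 0.34 to 0.59 on chromosome 17, and in Ptch1 replicate 1 they were 0.36 to 0.41 on chromosome 14. Parts of chromosomes 14 and 18 had no such window, among them the positions of Pcdh17 and Mbp. On chromosome 6 Ptch1 replicate 3 was at 0.31 and A1G replicate 3 at -0.29. The shift of Ptch1 replicate 3 held for only part of that chromosome, with -0.02 to 0.14 in the windows before 60 Mb and 0.25 to 0.51 in those after. The median difference between genotypes was -0.24 on chromosome 6 and 0.18 on chromosome 18, the chromosomes where these libraries stood out. DNA copy number was not measured, and the part of these shifts in the differences of single genes was not tested. Genes without coordinates here, Arhgap26 among them, could not be placed on a chromosome. Of the other genes named above, Arhgef33, Chaf1a and Srrm2 lie on chromosome 17, and Mbp, Dcc, Zeb1, Smad2 and Smad4 on chromosome 18. Pcdh17, Fdft1, Chchd1 and Rpph1 lie on chromosome 14. On chromosome 6 lie Atoh1, Smo, Serbp1, Foxm1, Ccnd2, Mcm2, Pdia4, Tgoln1, Itpr1, Kcna6, Plxna4, Hk2 and Neurod6.

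**Figure D5:**
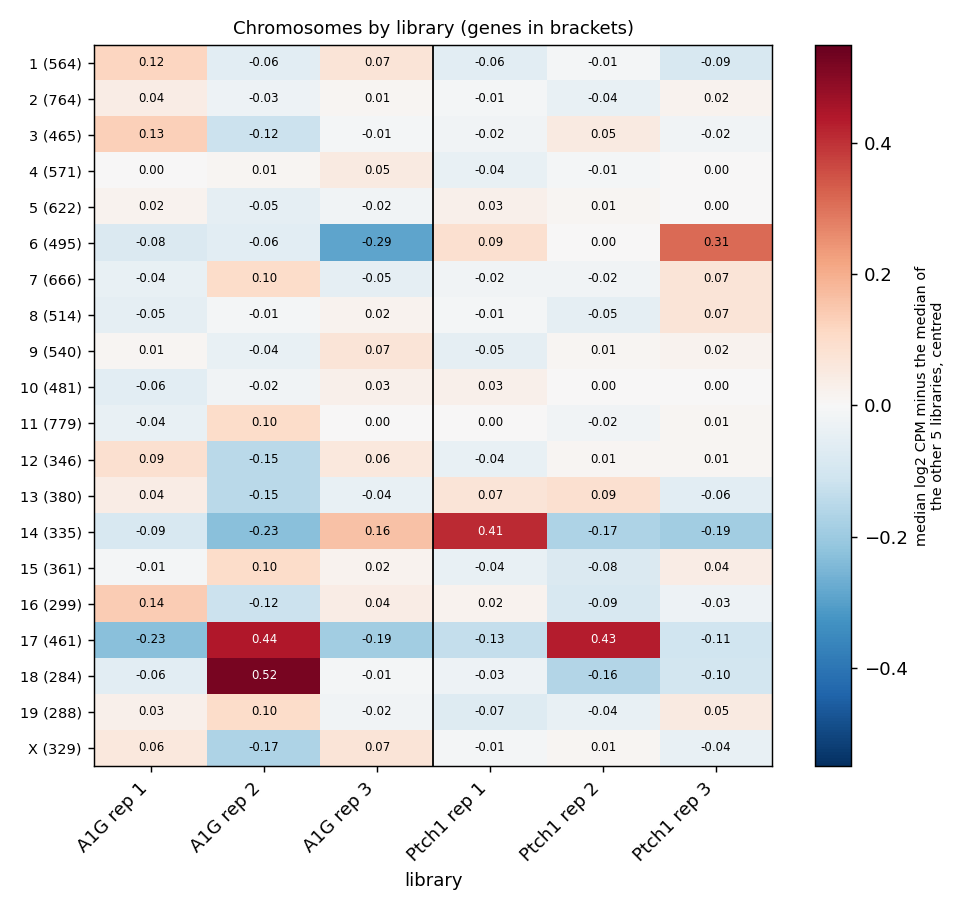
Rows are chromosomes with the number of genes in brackets, columns are the 6 tumour libraries, and each cell is the median log2 CPM minus the median of the other 5 libraries, centred within the library. The deepest red cells are chromosome 18 in A1G replicate 2 (0.52), chromosome 17 in A1G replicate 2 and Ptch1 replicate 2 (0.44 and 0.43) and chromosome 14 in Ptch1 replicate 1 (0.41).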

How the data were processed

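RNA was measured in 6 mouse tumour libraries, with 3 cerebellum libraries for reference. Per the submitters' processing notes, the build was mm10 and Bowtie 0.12.2 was named; the annotation and quantification tool are not given in the sources used here. Per the file headers, the deposited expected counts are raw fragments per gene, and 1147 to 1440 genes per tumour library held values not whole within 1e-06. The deposited signal columns are these fragments times a scaling factor per library set by the authors, and the deposited FPKM values are computed by the authors from scaled fragments. Values from 0 to 2 genes per tumour library with a failed status were kept.

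Fragments were rounded and tested with edgeR 4.0.16 (TMM scaling, filterByExpr with a minimum count of 10, Benjamini-Hochberg threshold 0.05) on the 6 tumour libraries. Cerebellum levels come from a scaling of all 9 libraries. Alternatives used other scalings, filters and fits, DESeq2 1.42.0, limma 3.58.1 on log2(FPKM + 1) and + 0.1, a replicate block, a length correction and each library left out. R 4.3.3, Python 3.11.15, NumPy 2.4.6, pandas 2.3.3 and matplotlib 3.10.9 were used, and the fit was tested on simulated data. Replicates were compared to look for a library deposited more than once, and a chi-square of 12.9 to 39.9 for each degree of freedom was found within the pairs.

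GENCODE M21 on mm10 matched 21688 of 23360 symbols, and 94% of tested genes had an exon length. Genes without coordinates in the text either had no match or were given by level only. Values carry no strand information, so overlapping and antisense genes cannot be told apart. The comparison and the 49 gene lists were chosen with earlier results of these data known, and no list was tested. A gene can pass the filter through its levels in a single group, which raises the share of separated members in lists of low level. Genes were named by rule. Atoh1, Ptch1, Gli1, Gli2 and Mycn were taken whatever their values. As fewer than 10 passed per direction, the 12 with the smallest p, no overlap and at least 5 CPM in the higher group followed, passing over code-named models. Each list gave its 2 most abundant members and the 1 with the smallest p, and each genotype the 5 genes of at least 50 CPM with the largest range, of which 1 is not reported here. Other list members without overlap, the genes high or low in 1 library and the forkhead neighbours were chosen after their values were seen.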

Additional observations from a re-analysis of the deposited data

How the results depend on the processing

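Under the 18 alternatives, the count of genes past the threshold moved in 4. Without a filter on low counts edgeR called 32 higher and 10 lower genes, DESeq2 called 25 and 28, and a fit of all 9 libraries called 2 higher genes, Calb1 and Arhgef33. Leaving out single libraries gave 0 to 1 higher genes and 0 lower genes, the 1 being Amd1 without A1G replicate 3 (113.1, 60.9 and 0.42 CPM against 0.23, 0.33 and 0.39 CPM). At an unadjusted p under 0.05 these leave-one-out fits counted 720 genes without Ptch1 replicate 1 to 1467 without A1G replicate 2. The cause of these changes was not tested.

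The log2 difference of Ptch1 turned to -0.09 without A1G replicate 2, and was at most 1.37 with another library left out. That of Gli2, near 0 with all libraries, was -0.04 without a filter, -0.01 with the filter of 1 CPM in 3 libraries, -0.06 in limma with either pseudocount, -0.01 with all 9 libraries, -0.04 with the length correction, and -0.30 to 0.26 as single libraries were left out. Of the 29 genes run under every alternative (Atoh1, the 4 Hedgehog genes and the 24 with the smallest p), no other turned its direction, and other genes named in the text were not run. With the replicate block Gli2 was at -0.06, 0 genes passed and 1080 had an unadjusted p under 0.05. Same-numbered libraries deviated from their group means with correlations of -0.082, 0.057 and 0.167. With 3 libraries behind each mean, these values cannot decide whether the numbers pair the samples. The depth of the A1G libraries limits genes near the floor, and 3 libraries per genotype limit small differences.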
